A study of Mus musculus with 8 samples.

Results

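The 44 genes described here encode the dolichol and N-glycosylation pathway of the mouse liver, from the supply of dolichol and sugar nucleotides to the trimming of the glycan on the folding protein. They were chosen by gene symbol from what their proteins do, out of the 19642 genes in the count table. No value entered this rule, but the choice was made with earlier results of these data known. All 44 passed the filter on low counts. They were compared between livers that lack NgBR, a subunit of the enzyme that starts dolichol synthesis, and WT livers.

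RNA was sequenced from the livers of 4 WT and 4 N-LKO mice, 1 library per mouse. All were male C57BL6 mice fed standard chow (CD). Their time on CD is given as 8 weeks in the titles and as 16 in the treatment entries, and the age in weeks was not given in the sources used here. N-LKO mice come from crosses that bring together loxP-flanked Nus1 (NgBR) alleles and an albumin-Cre transgene, whose promoter is active in hepatocytes, so the other cells of the liver keep the gene. Which of the alleles the WT animals carry was not given in the sources used here. Nus1 itself was at 82.0 to 90.5 CPM (counts scaled to library size) in the WT livers and at 33.3 to 38.7 CPM in the N-LKO livers. This is a log2 fold change of -1.26 (standard error, SE, 0.0748, edgeR adjusted p = 3.06e-05), which checks the genotype labels. What is left of Nus1 RNA in hepatocytes and what comes from other cells cannot be told apart in whole liver. The same holds for every gene below, since fewer cells of a type and less RNA per cell give the same value in bulk RNA.

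N-linked glycans are built in the endoplasmic reticulum on dolichol, a long lipid alcohol. A heteromer of NgBR and DHDDS, the cis-prenyltransferase, makes its precursor. Sugars are added to dolichol phosphate on the cytosolic face, the product is flipped into the lumen and extended with mannose and glucose, and oligosaccharyltransferase moves the finished glycan onto asparagine residues of nascent proteins. Hepatocytes use this route for most of the glycoproteins of plasma.

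No gene of the pathway passed the test between N-LKO and WT livers. By edgeR's quasi-likelihood test, 0 of 44 had an adjusted p under 0.05, against 1.04% of the 14214 genes tested (0.823% higher and 0.218% lower in N-LKO). By DESeq2 the count was 0 of 44 against 2.61% of all genes, and by limma-voom 0 of 44 against 0.886%. The lowest adjusted p among the 44 was 0.12 with edgeR, 0.0578 with DESeq2 and 0.126 with limma-voom, in each case for Gfpt1, the enzyme that commits sugar to the hexosamine route. At an unadjusted p under 0.05 in edgeR there were 8 genes, or 18.2%, against 12.8% of all genes. Of the 8, 7 were on the higher side in N-LKO (6.87% of all genes) and 1, Ost4, on the lower side (5.9% of all genes). Their unadjusted p values from edgeR ran from 0.00284 to 0.046. These counts rested in part on single mice and on the processing. Without WT 3 there were 4 such genes (9.09%, against 12.1% of all genes in that fit) and without WT 2 there were 5 (11.4% against 11.5%), shares at or below that of all genes. Without N-LKO 2 there were 11 (25% against 13.4%). With all mice there were 5 (11.4%) with libraries scaled by their totals alone, by DESeq2, and with library number as a block in the fit. The shares of all genes were then 12.7%, 11.5% and 13.6%. Library number is the number after the genotype in the name of a sample column, and no label says what it stands for. Mice are named here by the replicate number of the title.

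Log2 fold changes of the 44 genes ran from -0.29 for Pmm1 to 0.36 for Gfpt1. The value of Pmm1 rested on single mice, at -0.09 without WT 3 and -0.47 without WT 1. They were spread on both sides of zero, with 23 above it and 21 below (52.3% above, against 49.3% of all genes). Their median was 0.0191, beside -0.0033 for all genes tested. The median size of the difference, without its sign, was 0.111 in the pathway and 0.13 over all genes, both on the log2 scale. For a single gene of the pathway the standard error had a median of 0.104 and a range of 0.0687 to 0.321.

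Because a p above the threshold does not show equality, the intervals matter more here than the calls. The 95% interval of the fold change lay within 1.5-fold in either direction for 42 of 44 genes, against 62.1% of all genes tested. It lay within 2-fold for all 44, against 85.3% of all genes. All genes include some at lower levels, with group means down to 0.0564 CPM, beside 1.21 CPM in the pathway. These shares were not matched by level. The 2 genes whose intervals went past 1.5-fold were Alg12, a lumenal mannosyltransferase, with an interval of 0.951 to 1.71, and Pmm1, a phosphomannomutase, with an interval of 0.502 to 1.34. Both were measured at a low level, with WT means of 3.87 and 1.5 CPM.

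**Figure D1:**
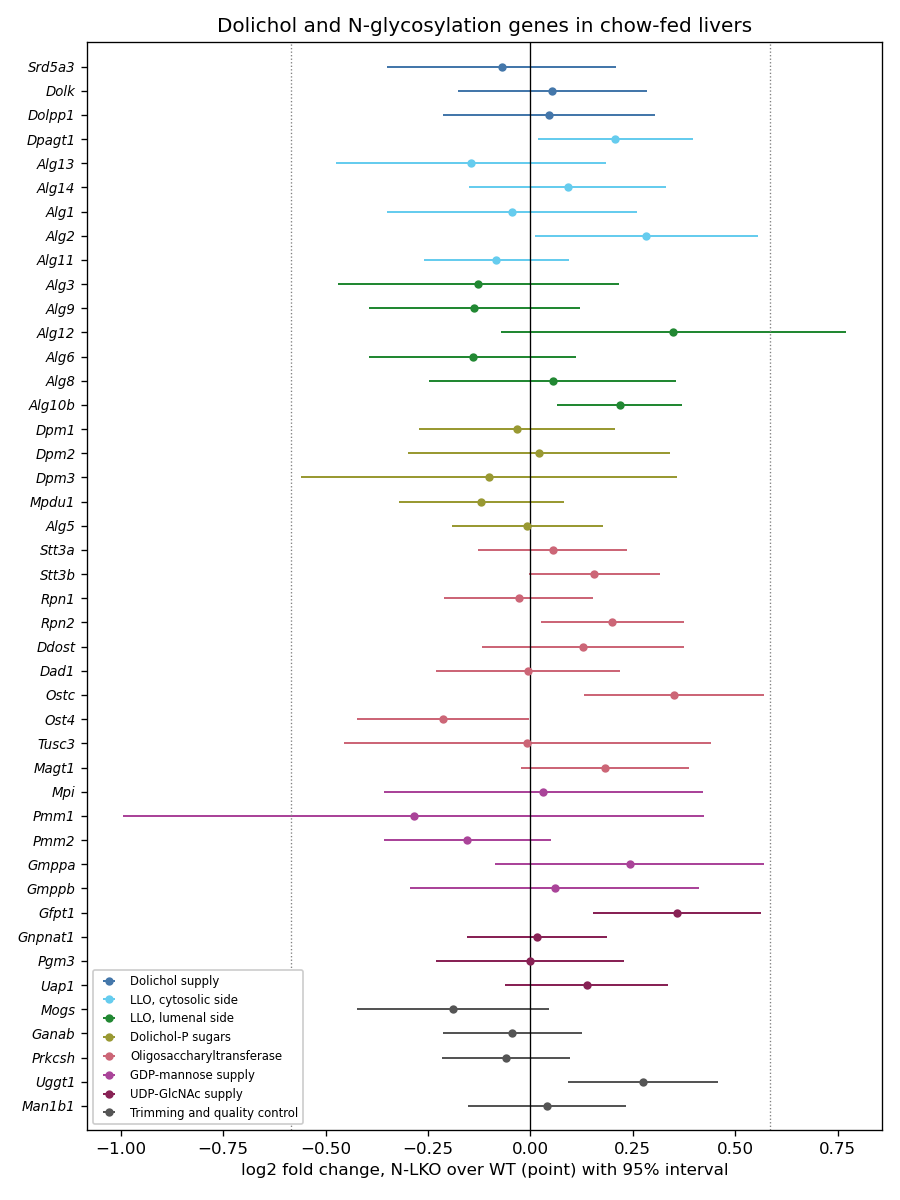
Log2 fold change of N-LKO over WT for each of the 44 genes (points) with its 95% interval (lines), in the order of the pathway and coloured by step, where LLO is the lipid-linked oligosaccharide. Dotted lines mark a 1.5-fold difference, which only the intervals of Alg12 and Pmm1 cross.

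In 6 of 44 genes (13.6%) every N-LKO liver lay above every WT liver, and in 0 of 44 every N-LKO liver lay below. Over all genes tested 7.52% had no overlap between genotypes, 4.2% with N-LKO higher and 3.32% with N-LKO lower. The 6 were Dpagt1, Alg10b, Stt3b, Rpn2, Gfpt1 and Uggt1, which stand at different points of the route, from the first sugar to the folding check. Without N-LKO 2 the count was 10 (22.7%, against 12.8% of all genes with those mice), and with libraries scaled by their totals alone it was 4 (9.09%, against 7.5%). A gene without overlap always gets p = 0.0286 in the exact two-sided permutation test over mice, before any adjustment. This is the smallest p that 4 mice against 4 can give. The value, given below for each of the 6, therefore restates the separation and adds no evidence to it.

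The mice were not alike in how often they were at the top. N-LKO 4 was the highest of the 8 livers for 13 of 44 genes and N-LKO 1 for 10, while WT 1 was the highest for 0 of 44. Over all 14214 genes tested, N-LKO 4 was the highest for 1590 and WT 1 for 1800. Spread within a genotype had a median coefficient of variation of 8.34% in WT livers and 10.5% in N-LKO livers for this pathway. Over all genes, which were not matched to the pathway by level, it was 12.8% and 13.3%. Neither N-LKO 4 nor another library stood apart in depth, which ran from 15430519 to 18412201 counts in WT and from 14688404 to 18585412 in N-LKO. The scaling factors (TMM) were 0.95 in N-LKO 1 and 0.955 in N-LKO 4, beside 0.986 to 1.03 in the other livers. A lower factor raises every CPM of that liver. Before this scaling the 44 genes held 0.123% of the counts in N-LKO 1 and 0.131% in N-LKO 4, beside 0.124% to 0.133% in the others. The part of scaling in these ranks was not tested.

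**Figure D2:**
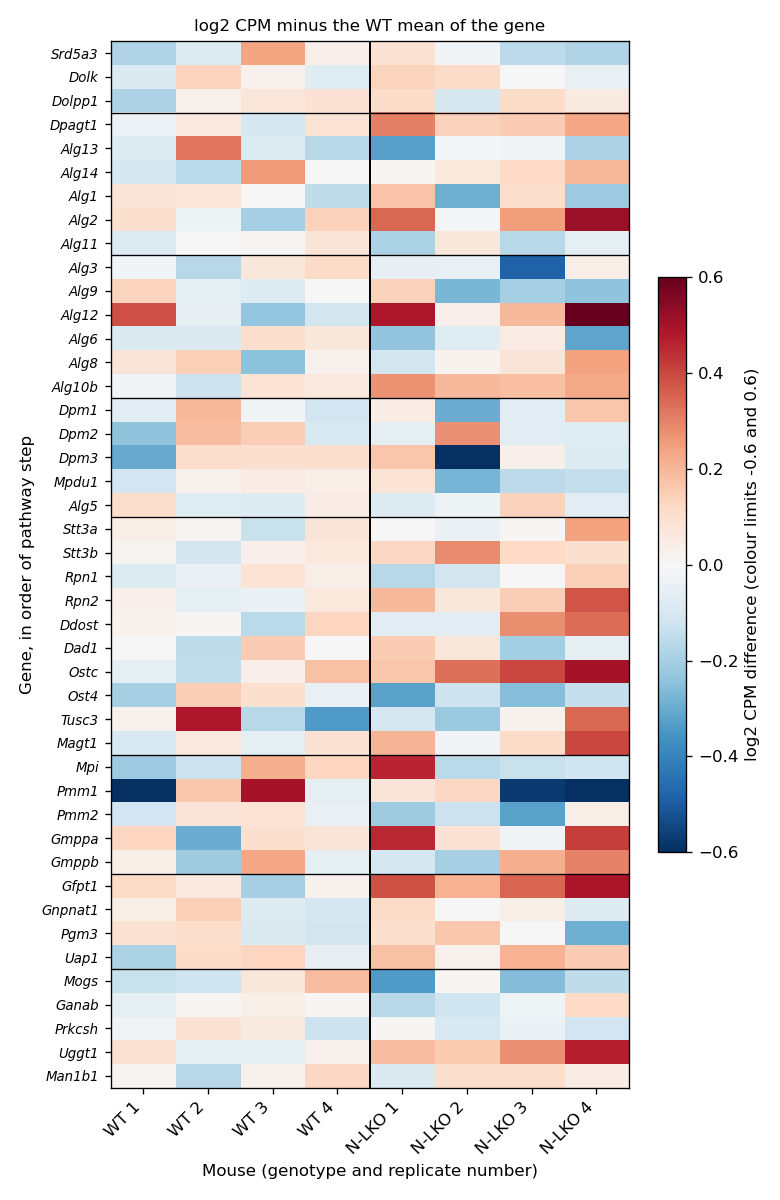
Log2 CPM of each gene in each mouse minus the mean of the 4 WT mice for that gene, red for above and blue for below, with colours capped at a difference of 0.6 in size. The 4 N-LKO columns are red throughout for a few rows, among them Gfpt1, Ostc and Alg10b, and most other rows change colour from mouse to mouse within a genotype.

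Dolichol supply has 3 genes in the list, and 0 of the 3 had an unadjusted p under 0.05 by edgeR. Srd5a3 (chromosome 5, 76140271 to 76155504 on the plus strand of GRCm38) encodes the reductase on the way from polyprenol to dolichol. It was at 6.52, 7, 8.75 and 7.56 CPM in WT livers and at 7.88, 7.33, 6.64 and 6.52 CPM in N-LKO livers. The ranges of the genotypes overlapped. Its log2 fold change was -0.07 (SE 0.127, edgeR adjusted p = 0.877), with a 95% interval of 0.785 to 1.16 for the fold. Dolk (chromosome 2, 30284231 to 30286334, minus strand) encodes dolichol kinase, which makes dolichol phosphate. WT livers held 7.37, 8.63, 7.99 and 7.45 CPM of it, and N-LKO livers 8.62, 8.51, 7.83 and 7.6 CPM. Here too the genotypes overlapped, with a log2 fold change of 0.05 (SE 0.105, edgeR adjusted p = 0.888). Dolpp1, the phosphatase that recycles dolichyl pyrophosphate, differed by 0.05 on the log2 scale. Dhdds, the partner of NgBR, was no member of the list and differed by 0.06 (edgeR adjusted p = 0.806).

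On the cytosolic face, 6 genes add the GlcNAc residues and the first mannoses. Their median log2 fold change was 0.0225, with 3 genes above zero and 3 below, and 2 had an unadjusted p under 0.05 by edgeR, Dpagt1 and Alg2. Dpagt1 (chromosome 9, 44326019 to 44333900, plus strand) encodes the transferase that puts GlcNAc phosphate on dolichol phosphate and is the target of tunicamycin. In WT livers it was at 13, 13.9, 12.4 and 14.1 CPM, and in N-LKO livers at 16.4, 14.7, 14.8 and 15.7 CPM. The lowest N-LKO liver stood above the highest WT liver by a narrow margin. The log2 fold change was 0.21 (SE 0.0855, edgeR adjusted p = 0.343, exact permutation p = 0.0286). Alg2 (chromosome 4, 47465067 to 47474333, minus strand), a mannosyltransferase, was at 14.2, 13, 11.5 and 14.6 CPM in WT and at 16.9, 13.2, 15.9 and 19.1 CPM in N-LKO. N-LKO 2 was within the WT range and the other N-LKO livers were above it. Alg2 had a log2 fold change of 0.28 (SE 0.123, edgeR adjusted p = 0.373, exact permutation p = 0.0857), which was 0.20 without N-LKO 4 and 0.37 without N-LKO 2. Alg13 and Alg14, which together add the second GlcNAc, differed by -0.15 and 0.09, and Alg1 and Alg11, mannosyltransferases, by -0.05 and -0.08. None of these 4 had an unadjusted p under 0.05 by edgeR.

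In the lumen 3 mannosyltransferases (Alg3, Alg9, Alg12) and 3 glucosyltransferases (Alg6, Alg8, Alg10b) finish the glycan. The median over the 6 was -0.0365, and 1 had an unadjusted p under 0.05 by edgeR, Alg10b. Alg10b (chromosome 15, 90224311 to 90233471, plus strand) adds the last glucose, the residue that oligosaccharyltransferase recognises. It was at 59.4, 55.3, 63.8 and 62.6 CPM in WT livers and at 72.7, 68.9, 68.2 and 70.5 CPM in N-LKO livers. The N-LKO livers were close together and all above the WT livers. This gave a log2 fold change of 0.22 with the smallest standard error of the 44 genes, 0.0687 (edgeR adjusted p = 0.198, exact permutation p = 0.0286). Alg12, which had a difference of similar size to Gfpt1, was far less certain. It was at 5.02, 3.69, 3.23 and 3.53 CPM in WT and at 5.39, 3.89, 4.38 and 6.11 CPM in N-LKO, so that WT 1 lay among the N-LKO livers. The log2 fold change of Alg12 was 0.35 (SE 0.191, edgeR adjusted p = 0.493), and it was 0.50 without WT 1. Alg3, Alg9 and Alg6 were on the lower side, between -0.14 and -0.13, and Alg8 differed by 0.05.

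The 5 genes that charge dolichol phosphate with mannose or glucose, or that are needed to use the charged lipid, had a median of -0.0330. Dpm1, Dpm2 and Dpm3, the subunits of dolichol-phosphate mannose synthase, differed by -0.03, 0.02 and -0.10. Mpdu1, needed for the use of both charged lipids, differed by -0.12, and Alg5, the glucose counterpart of Dpm1, by -0.01. None had an unadjusted p under 0.05 by edgeR. Dpm2, the only gene of the step above zero, was at -0.01 when libraries were scaled by their totals alone.

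Oligosaccharyltransferase was the largest group, with 10 genes and a median of 0.0914. That median was 0.0336 without N-LKO 4 and 0.0617 without WT 3, where the medians of UDP-GlcNAc supply were 0.11 and 0.0854. By edgeR 0 of 10 were called and 3 had an unadjusted p under 0.05, Ostc and Rpn2 on the higher side and Ost4 on the lower. The enzyme exists in 2 forms. STT3A is the catalytic subunit of the form that works on chains as they enter the lumen and includes OSTC and KRTCAP2, and STT3B is that of the form that glycosylates sites left over and includes MAGT1 or TUSC3. Stt3a (chromosome 9, 36729344 to 36767679, minus strand) was at 62.8, 61.7, 55.7 and 64.3 CPM in WT livers and at 61.1, 59.5, 61.3 and 72.1 CPM in N-LKO livers. Apart from N-LKO 4, its values lay in 1 range in both genotypes. The log2 fold change of Stt3a was 0.05 (SE 0.0823, edgeR adjusted p = 0.843) and -0.01 without N-LKO 4. Stt3b (chromosome 9, 115242581 to 115310421, minus strand) was at 107.6, 98.6, 108.9 and 111.5 CPM in WT and at 116.2, 129.7, 115.7 and 113.7 CPM in N-LKO. Its genotypes did not overlap, with N-LKO 2 well above the rest. The log2 fold change was 0.16 (SE 0.0726, edgeR adjusted p = 0.402, exact permutation p = 0.0286).

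Among the members found in a single form of the enzyme, Ostc (chromosome 3, 130695912 to 130709444, minus strand) had the largest difference. It was at 19.9, 18.6, 21.1 and 23.4 CPM in WT livers and at 23.2, 26.1, 27.3 and 29.3 CPM in N-LKO livers. N-LKO 1 lay just below WT 4, and the other N-LKO livers lay above the WT livers. The log2 fold change of Ostc was 0.35 (SE 0.0994, edgeR adjusted p = 0.156, exact permutation p = 0.0571), a fold of 1.27 with a 95% interval of 1.09 to 1.48. Krtcap2, its neighbour in the STT3A form and no member of the list, had a log2 fold change of 0.43 (edgeR adjusted p = 0.291, exact permutation p = 0.0857). Of the subunits of the STT3B form, Magt1 (chromosome X, 105968084 to 106011906, minus strand) encodes an oxidoreductase. It was at 61.3, 67.9, 62.8 and 69.3 CPM in WT and at 75.1, 64.6, 70.5 and 86.1 CPM in N-LKO. N-LKO 2 was inside the WT range, and the log2 fold change was 0.18 (SE 0.0929, edgeR adjusted p = 0.461), and 0.10 without N-LKO 4. Tusc3 (chromosome 8, 39005845 to 39165114, plus strand), which can take the place of MAGT1, was at 4.65, 6.44, 4.06 and 3.59 CPM in WT and at 4.25, 3.89, 4.64 and 5.84 CPM in N-LKO. Its log2 fold change was -0.01 (SE 0.203, edgeR adjusted p = 0.993), with a 95% interval of 0.73 to 1.36 for the fold.

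The subunits common to both forms lay on both sides of zero. Rpn2 (chromosome 2, 157279017 to 157326319, plus strand), ribophorin II, was at 80.4, 75.5, 76.5 and 82.1 CPM in WT and at 90.0, 82.4, 87.0 and 102 CPM in N-LKO. The gap between the genotypes was narrow, 82.1 against 82.4 CPM. Rpn2 had a log2 fold change of 0.20 (SE 0.0786, edgeR adjusted p = 0.314, exact permutation p = 0.0286). Ost4 (chromosome 5, 30905885 to 30907788, minus strand), a very small subunit, was at 21.9, 27.8, 26.9 and 24.3 CPM in WT and at 20.1, 23.0, 21 and 22.8 CPM in N-LKO. WT 1 was inside the N-LKO range and the other WT livers were above it. Ost4 differed by -0.21 (SE 0.0949, edgeR adjusted p = 0.384, exact permutation p = 0.0857). Of its annotated exon length, 53.2% is shared with Agbl5 on the opposite strand, and nothing says that strand was used in counting, so its counts are uncertain. Rpn1 differed by -0.03, Ddost by 0.13 and Dad1 by -0.01, with unadjusted p values of 0.276 to 0.957 from edgeR.

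Levels of different subunits can be compared only per length of transcript. Divided by the length of all annotated exons, the WT means over 4 mice were 25.3 ± 1.33 CPM per kb (SD) for Stt3b and 6.83 ± 0.424 CPM per kb for Stt3a. On the same scale Magt1 was at 14.0 and Tusc3 at 1.36 CPM per kb. With the length of the principal transcript, chosen after the data were seen, Stt3a was at 10.4 and Tusc3 at 3.05, with Stt3b at 25.3 and Magt1 at 14.4 CPM per kb. In both scales the Stt3b mRNA was thus above the Stt3a mRNA, and that of Magt1 above that of Tusc3, in either genotype. The position of Ostc depended on the scale, 7.55 CPM per kb in WT livers by all exons and 19.5 by the principal transcript. Over the 44 genes the WT level ran from 0.524 for Pmm1 to 25.3 CPM per kb for Stt3b by all exons, with a median of 3.99.

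**Figure D3:**
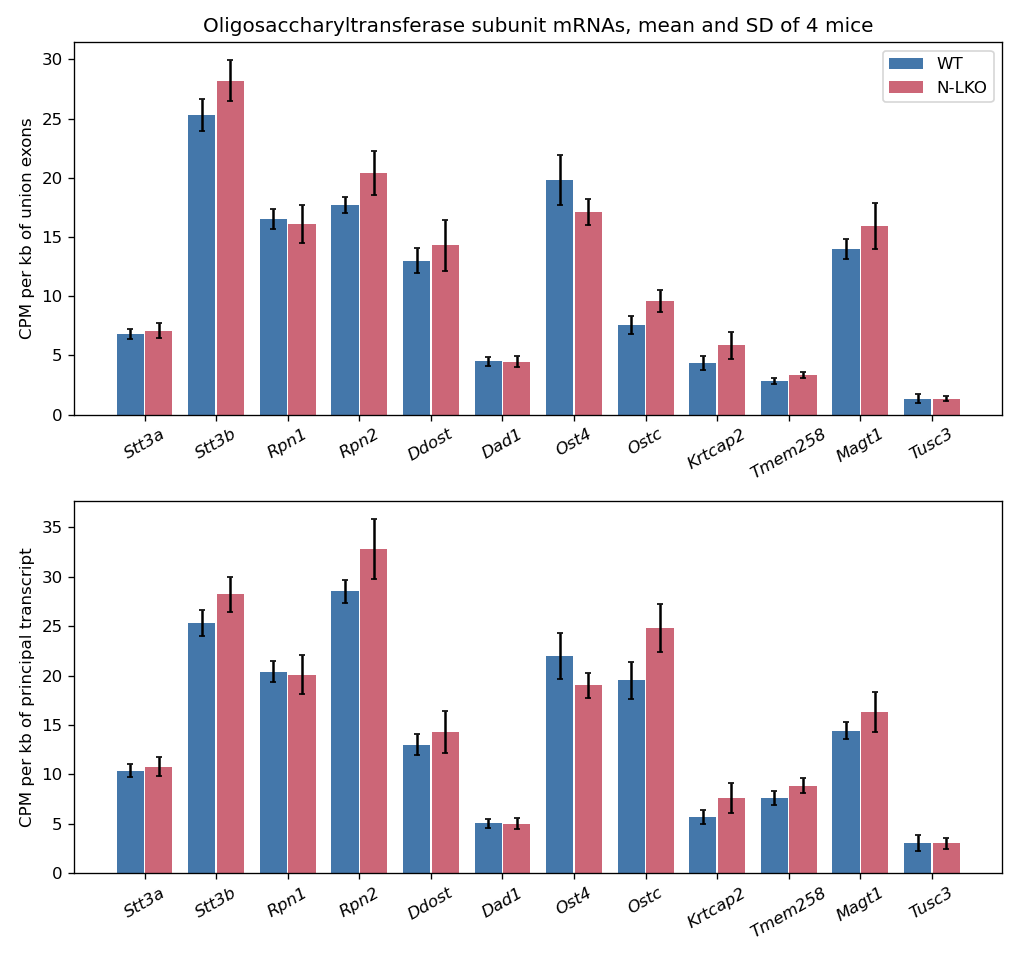
Level of each oligosaccharyltransferase subunit mRNA in CPM per kb, by the length of all annotated exons (top) and of the principal transcript (bottom), as mean (bars) and SD (error bars) of 4 mice. Stt3b is above Stt3a and Magt1 above Tusc3 in both panels, and Krtcap2 and Tmem258 are subunits outside the 44 genes.

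GDP-mannose feeds both faces of the pathway, directly or through dolichol-phosphate mannose, and 5 genes supply it. Their median was 0.0315, and 0 of 5 had an unadjusted p under 0.05 by edgeR. Mpi, which makes mannose-6-phosphate from fructose-6-phosphate, differed by 0.03, and by -0.15 without N-LKO 1, whose 7.65 CPM was far above the 4.95 to 5.09 CPM of the other N-LKO livers. Of the 2 phosphomannomutases Pmm2 had the higher level in WT livers, 5.52 CPM per kb of exon beside 0.524 for Pmm1. Pmm2 differed by -0.15 (SE 0.0921, edgeR adjusted p = 0.536) and Pmm1 by -0.29 (SE 0.321). Gmppb, which makes GDP-mannose, differed by 0.06, and 33.6% of its exon length is shared with Rnf123 on the opposite strand, so its counts are uncertain. The difference for Gmppa, its regulatory partner, was 0.24 (SE 0.149, edgeR adjusted p = 0.546).

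UDP-GlcNAc supplies the first sugars of the glycan and is made from fructose-6-phosphate by the hexosamine route, with 4 genes in the list. Gfpt1 (chromosome 6, 87042846 to 87092197, plus strand), its first and rate-limiting enzyme, was at 24.7, 23.8, 19.8 and 23.2 CPM in WT livers and at 29.8, 26.4, 29.1 and 32.1 CPM in N-LKO livers. All N-LKO livers stood above all WT livers. The log2 fold change of 0.36 (SE 0.093, edgeR adjusted p = 0.12, exact permutation p = 0.0286) was the highest of the pathway, a fold of 1.28 with a 95% interval of 1.11 to 1.48. With each mouse left out in turn it stayed between 0.30 and 0.41, and the adjusted p from edgeR was between 0.0844 and 0.264. The later enzymes of the route had differences nearer to zero, which were not tested against that of Gfpt1. Gnpnat1, the acetyltransferase, differed by 0.02, Pgm3, the mutase, by -0.0013, and Uap1, which makes UDP-GlcNAc, by 0.14 (edgeR adjusted p = 0.577). Gnpnat1 shares 81.9% of its exon length with Styx and Pgm3 28.3% with Dop1a, each on the opposite strand, so their counts are uncertain.

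After transfer, glucosidases and a mannosidase trim the glycan while UGGT1 puts a glucose back on chains that are not yet folded. Of the 5 genes here, 1 had an unadjusted p under 0.05 by edgeR, and their median was -0.0439. Uggt1 (chromosome 1, 36140027 to 36244720, minus strand) was at 50.5, 45.5, 45.7 and 48.2 CPM in WT livers and at 54.0, 52.9, 57.5 and 65.5 CPM in N-LKO livers. The genotypes did not overlap, and N-LKO 4 was the highest. Uggt1 had a log2 fold change of 0.28 (SE 0.0829, edgeR adjusted p = 0.179, exact permutation p = 0.0286), which was 0.21 without N-LKO 4. Mogs, glucosidase I, differed by -0.19 (SE 0.106, edgeR adjusted p = 0.506). Ganab and Prkcsh, the subunits of glucosidase II, differed by -0.04 and -0.06, and Man1b1, the ER mannosidase, by 0.04.

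**Figure D4:**
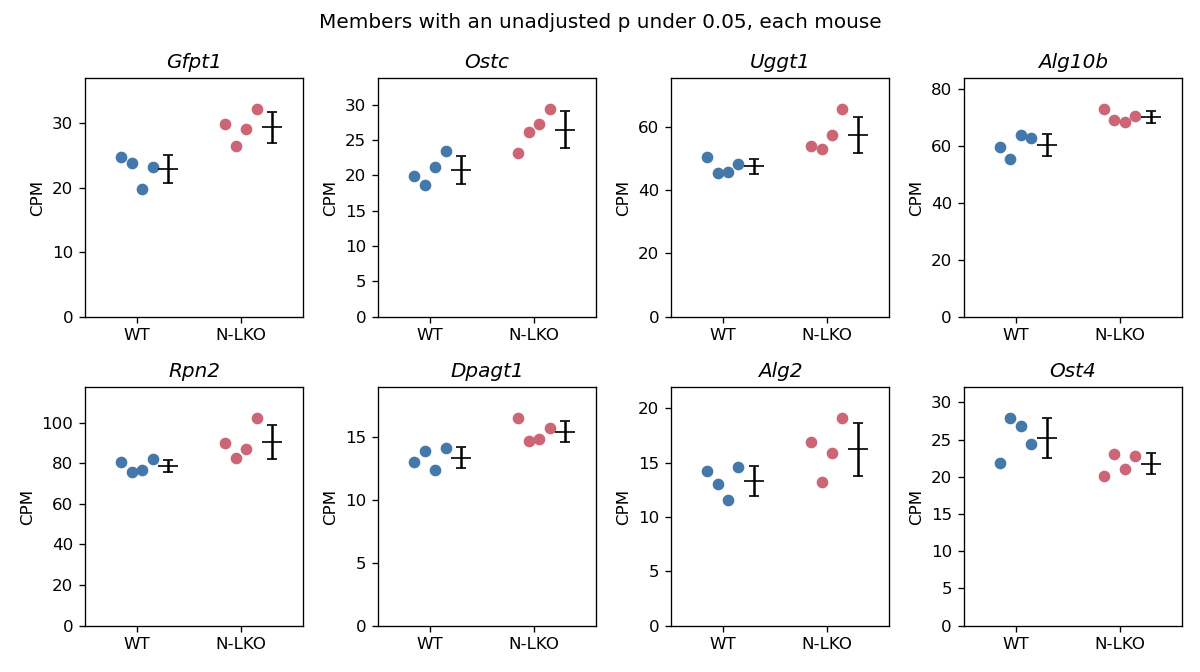
CPM of the 8 genes with an unadjusted p under 0.05 in edgeR, 1 point per mouse in replicate order, with mean and SD (n = 4) beside each group and every axis starting at 0. The genotypes are apart for Gfpt1, Uggt1, Alg10b, Rpn2 and Dpagt1 and overlap for Ostc, Alg2 and Ost4.

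Genes next to the pathway were measured in the same fit. Of 52 tested genes that share its lipid, its substrates or its product, 0 were called by edgeR, 3 by DESeq2 and 0 by limma-voom, and 10 had an unadjusted p under 0.05 in edgeR (19.2%, against 12.8% of all genes). They were, by group, 12 transferases that use dolichol-phosphate mannose for other modifications (median log2 fold change 0.0462), 20 Golgi enzymes and transporters of N-glycan maturation (-0.0079), 10 genes of glycan-directed degradation and export (0.124), 6 genes of sialic acid and UDP-glucose supply (0.0411) and 4 further genes of the lipid-linked oligosaccharide and oligosaccharyltransferase (0.197). Pigz, a further mannosyltransferase, did not pass the filter on low counts. By DESeq2 the 3 calls were the Golgi mannosidases Man2a1 (0.30, adjusted p = 0.0153) and Man2a2 (0.35, adjusted p = 0.0158) and Edem1 (0.39, adjusted p = 0.0191), which takes trimmed proteins to degradation. With edgeR the adjusted p of these was 0.134, 0.0688 and 0.101. Man2a1 is given because DESeq2 called it and was chosen after its values were seen. The lowest p of the mannose-using transferases was that of Dpy19l4, only a putative C-mannosyltransferase (0.17, edgeR adjusted p = 0.47). In the sialic acid group the lowest p was that of Nans, which makes the sialic acid precursor (0.67, edgeR adjusted p = 0.176). The counts of Nans are uncertain too, with 29.6% of its exon length shared with Trim14 on the opposite strand.

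A list of 17 genes, mostly chaperones and folding enzymes of the endoplasmic reticulum, had a higher median than any step of the pathway. Chaperones receive the glycosylated chains. The list also holds Sel1l and Herpud1, which serve degradation there, and all its genes are called chaperones for short. Like the 44 genes, it was chosen with earlier results of these data known. Of the 17 genes, 3 were called by edgeR, all higher in N-LKO, 10 by DESeq2 and 2 by limma-voom. The shares of all genes called were 1.04%, 2.61% and 0.886%. An unadjusted p under 0.05 in edgeR was found for 14 of the 17 (82.4%, against 12.8% of all genes). The called genes were Sdf2l1 (log2 fold change 1.61, adjusted p = 0.0201), Manf (0.97, adjusted p = 0.0278) and Hspa5, which encodes BiP (0.68, adjusted p = 0.033), all from edgeR. These calls were lost with single mice left out, for Sdf2l1 without WT 1, WT 2, WT 3 or N-LKO 3, for Manf without those or without N-LKO 1 or N-LKO 4, and for Hspa5 without any WT liver, N-LKO 1 or N-LKO 4. A block by library number also ended the 3 calls (edgeR adjusted p = 0.0654, 0.101 and 0.0982), with log2 fold changes of 1.55, 0.95 and 0.67, close to those without it. For ER stress genes in livers of mice fed CD, the study reports no significant difference between genotypes by RNA-seq. Its genes and its test were not compared with those used here. The median of the 17 was 0.383, beside 0.0191 for the 44 glycosylation genes, and the difference between the lists was not tested. N-LKO 4 had the highest level of 15 of the 17 chaperones, as it had of 13 of the 44 glycosylation genes, and the part of this in the differences of Uggt1, Alg2, Ostc and Rpn2 was not tested beyond the values without N-LKO 4. For Ostc that value was 0.30 and for Rpn2 0.14.

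**Figure D5:**
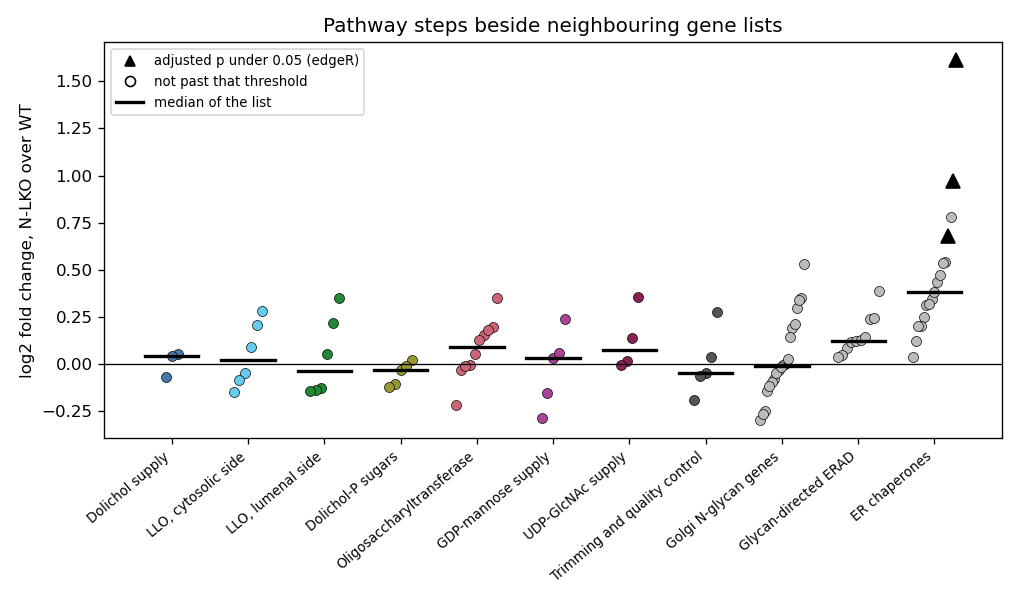
Log2 fold change of N-LKO over WT for each gene (points) and the median of each list (bars), for the 8 steps of the pathway and for 3 neighbouring lists (grey). Triangles mark genes past the edgeR threshold, which appear among the ER chaperones (Sdf2l1, Manf and Hspa5) and in 0 of the 44 glycosylation genes, and Nus1, at -1.26, is not drawn.

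RefSeq promoter sequences of GRCm38.p6, 250 bases before to 50 bases after each start, were searched on both strands for elements of the ER stress response and of sterol control. An entry was found for 37 of the 44 genes. ERSE, the element bound by ATF6 and XBP1 with NF-Y, was written as CCAAT and CCACG with 9 bases between them. It was present in 1 of 37 promoters of the pathway (2.7%), that of Alg12, in 7 of 15 chaperone promoters (46.7%) and in 0.137% of all 27025 genes with an entry. ERSE-II, written as ATTGG and CCACG with 1 base between them, was found in 0 of 37 promoters of the pathway, in 2 of 15 chaperone promoters and in 0.0444% of all genes. Both elements are known from promoters of genes in the chaperone list, so the chaperone shares are no independent result. Outside the 44 genes Krtcap2 held an ERSE-II. Of the chaperones called by edgeR, Hspa5 held an ERSE, Sdf2l1 held neither element, and Manf had no entry. UPRE, written as TGACGTGG, the ATF4 element TGATGNAAN and the sterol element TCACNCCAC were in 0 of 37 promoters of the pathway, and in 0.714%, 4.5% and 1.44% of all genes. A match is no more than these letters in the window, and a window without one says nothing of other sites.

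The ERSE of Alg12 is also that of Creld2, a chaperone gene that starts on the other strand of the same stretch of chromosome 15. Creld2 had a log2 fold change of 0.78 (edgeR adjusted p = 0.0535) and Alg12 one of 0.35 (adjusted p = 0.493). The elements are shown 5′ to 3′ in the orientation that starts with CCAAT or ATTGG, with both ends in capitals and the bases between them in lower case, to set that of Alg12 beside those of the chaperones and of Krtcap2.
Alg12 and Creld2, chr15:88819520-88819538: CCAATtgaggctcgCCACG
Hspa5, chr2:34772025-34772043: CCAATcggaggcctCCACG
Calr, chr8:84847075-84847093: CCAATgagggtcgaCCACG
Hsp90b1, chr10:86705638-86705656: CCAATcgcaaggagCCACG
Hsp90b1, chr10:86705533-86705551: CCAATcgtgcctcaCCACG
Canx, chr11:50325800-50325818: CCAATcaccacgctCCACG
Pdia6, chr12:17266491-17266509: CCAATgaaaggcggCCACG
Dnajc3, chr14:118937827-118937845: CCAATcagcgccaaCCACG
Krtcap2, chr3:89246490-89246500: ATTGGaCCACG
Herpud1, chr8:94386377-94386387: ATTGGgCCACG
Dnajb11, chr16:22857852-22857862: ATTGGcCCACG
The other chaperones that hold an ERSE had log2 fold changes of 0.68 for Hspa5 (SE 0.129), 0.54 for Pdia6 (SE 0.116), 0.35 for Calr (SE 0.123), 0.32 for Dnajc3 (SE 0.0745), 0.25 for Hsp90b1 (SE 0.0925) and 0.21 for Canx (SE 0.0856). Those that hold an ERSE-II had 0.47 for Dnajb11 (SE 0.118) and 0.04 for Herpud1, whose SE of 0.449 leaves a 95% interval of -0.95 to 1.03 on the log2 scale. Differences between these genes were not tested.

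The whole promoter windows are shown for Alg12 and Krtcap2, which hold an element, and for Gfpt1, Alg10b and Uggt1, the genes of the pathway with the lowest p that have an entry and hold none. Capitals mark the whole ERSE or ERSE-II, and each sequence is on the strand of its gene.
Alg12, chr15:88819269-88819568, minus strand: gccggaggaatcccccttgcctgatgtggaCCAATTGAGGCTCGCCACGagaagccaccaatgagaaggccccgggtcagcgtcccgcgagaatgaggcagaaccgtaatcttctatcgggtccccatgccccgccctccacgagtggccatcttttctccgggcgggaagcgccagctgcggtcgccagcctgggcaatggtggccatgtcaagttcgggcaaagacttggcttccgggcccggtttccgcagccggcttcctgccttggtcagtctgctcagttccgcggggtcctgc
Krtcap2, chr3:89246223-89246522, plus strand: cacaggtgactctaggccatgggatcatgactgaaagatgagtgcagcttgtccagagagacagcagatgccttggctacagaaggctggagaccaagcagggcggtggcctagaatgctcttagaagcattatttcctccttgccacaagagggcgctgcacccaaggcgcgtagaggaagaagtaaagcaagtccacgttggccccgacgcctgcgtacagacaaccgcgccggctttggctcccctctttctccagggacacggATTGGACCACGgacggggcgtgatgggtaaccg
Gfpt1, chr6:87042596-87042895, plus strand: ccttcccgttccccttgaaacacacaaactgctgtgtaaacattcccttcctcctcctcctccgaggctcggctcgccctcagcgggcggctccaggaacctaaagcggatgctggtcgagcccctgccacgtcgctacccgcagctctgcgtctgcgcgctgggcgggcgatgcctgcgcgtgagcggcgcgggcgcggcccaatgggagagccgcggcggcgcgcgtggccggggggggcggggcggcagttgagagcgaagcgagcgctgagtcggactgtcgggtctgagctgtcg
Alg10b, chr15:90224061-90224360, plus strand: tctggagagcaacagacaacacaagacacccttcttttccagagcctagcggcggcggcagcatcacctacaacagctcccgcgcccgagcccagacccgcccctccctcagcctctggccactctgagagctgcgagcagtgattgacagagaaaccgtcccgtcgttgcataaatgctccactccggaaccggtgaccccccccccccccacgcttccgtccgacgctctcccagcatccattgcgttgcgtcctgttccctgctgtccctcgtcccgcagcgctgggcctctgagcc
Uggt1, chr1:36244253-36244552, minus strand: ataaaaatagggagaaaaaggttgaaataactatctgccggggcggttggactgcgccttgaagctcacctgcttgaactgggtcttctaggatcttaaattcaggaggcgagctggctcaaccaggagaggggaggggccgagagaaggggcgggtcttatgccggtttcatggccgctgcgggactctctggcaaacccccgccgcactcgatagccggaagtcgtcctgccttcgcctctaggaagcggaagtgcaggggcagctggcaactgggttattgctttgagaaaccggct
Counted from the RefSeq start of the window shown, the element lies at -220 to -202 in Alg12 and at 17 to 27 in Krtcap2. RefSeq gives Krtcap2 a further window, chr3:89246188-89246487, which ends before the element, and the GENCODE gene starts at 89245966, so the element is inside the annotated gene. GC content was 64.3% in the Alg12 window, 70.3% in that of Gfpt1, 64.3% in that of Alg10b and 57.0% in that of Uggt1.

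Some genes taken as markers of other cell types moved with genotype in these livers, and their calls depended on the tool. Of 4 cholangiocyte markers tested, Epcam and Spp1 were called by edgeR as higher in N-LKO, where 1.04% of all genes were called. Krt19, at 0.619 CPM in WT and 0.939 CPM in N-LKO on average, was not called (edgeR adjusted p = 0.428). Sox9 was not called either (edgeR adjusted p = 0.105), and Krt7, a defining marker, did not pass the filter. The study also uses Spp1 and Epcam for a hepatocyte cluster rich in cancer cells. That cluster was described under a Western diet, in a sample to which tumour cells had been added. On CD the study saw no tumours in N-LKO livers. Whether hepatocytes express Spp1 or Epcam in the livers used here was not tested, so these genes cannot be taken to single out cholangiocytes. The summed level of the list was 22.8 to 44.3 CPM in WT and 51.7 to 130.9 CPM in N-LKO. Most of that sum was Spp1, with means of 23.9 CPM in WT and 68.1 CPM in N-LKO. DESeq2 called 3 of the 4 and limma-voom 0 of 4 (adjusted p = 0.0621 for Epcam and 0.052 for Spp1). Of 5 fibroblast markers, Col1a1 and Lum were called as higher, with sums of 143.8 to 199.4 CPM in WT and 216.6 to 305.8 CPM in N-LKO. Most of this sum was Dcn, at 143 and 193 CPM on average, which was not called (edgeR adjusted p = 0.185). DESeq2 called 3 of the 5 and limma-voom 1, Lum. In N-LKO mice fed a Western diet the study found activation and matrix genes raised in stellate cells. Matrix genes such as these therefore do not single out fibroblasts. Kupffer cell markers had a median of -0.189 with 5 of 5 below zero, endothelial markers one of -0.0464 with 4 of 5 below zero, and stellate cell markers one of -0.0819 with 3 of 5 below zero. In each of these 3 lists 0 of 5 were called by edgeR, DESeq2 or limma-voom, and at an unadjusted p under 0.05 in edgeR there was 1 Kupffer marker (Timd4, on the lower side), 1 stellate marker (Des, on the higher side) and 0 endothelial markers. Hepatocyte markers had a median of -0.0074 with 0 of 6 called by edgeR (0 with an unadjusted p under 0.05, 0 by DESeq2 and 0 by limma-voom). The part of these cells in the values of the 44 glycosylation genes was not tested.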

How the data were processed

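The authors deposited expected counts, estimated reads per gene and mouse that need not be whole and are not scaled to depth. The study's methods give rRNA removal, TopHat2 and cuffdiff, the submitters' processing notes name STAR, Partek and mm9, and the program that made the counts is not given in the sources used here. Of 19194 genes with a GENCODE M21 symbol, 19006 had its GRCm38 coordinates. Groups came from the genotype labels and replicate numbers from the titles. The library number, read from the name of the sample column, differs from the title number for most mice. WT 1, WT 2, WT 3 and WT 4 have library numbers 4, 2, 1 and 3. N-LKO 1, N-LKO 2, N-LKO 3 and N-LKO 4 have library numbers 1, 3, 4 and 2. The number of unused sample columns was 0.

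Counts were rounded, filtered with filterByExpr of edgeR 4.0.16 (minimum count 10, minimum total 15), scaled by TMM and fitted by genotype alone (glmQLFit, then glmQLFTest, R 4.3.3). Benjamini-Hochberg adjustment ran over 14214 genes with a threshold of 0.05. A standard error is the size of the log2 fold change over the square root of F. Log2 CPM used a prior count of 2. The scripts were tested on simulated counts. No pair of libraries of a genotype agreed within sampling noise (chi-square per degree of freedom 10.7 to 43.6). Nothing in the labels beyond "biological replicate" says that mice of a genotype were handled apart, so p-values measure the spread between these samples.

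The members and gene lists were chosen with earlier results of these data known. Values in every mouse are given for genes with an adjusted or unadjusted p under 0.05, or a DESeq2 call, and for Dpagt1, Srd5a3, Dolk, Stt3a, Stt3b, Gfpt1, Tusc3 and Magt1 for their role. Other lists are represented by called genes or by the lowest p. Alg12, Mpi, Creld2, Dcn, Krt19, Sox9 and the chaperones with an element were given after their values or promoters were seen. The alternatives were RLE scaling, library totals, no filter, 10 counts in every mouse, replicate blocks, DESeq2 1.42.0, limma-voom (limma 3.58.1) and leaving out each mouse.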

Additional observations from a re-analysis of the deposited data

Results flagged for a closer look

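In 8 of 88 groups of 4 livers (44 genes in each genotype) 1 liver stood further from the others than the 95% limit of Dixon's test for 4 values, and chance alone gives about 4.4. The values are log2 CPM. Among N-LKO livers these were Alg3 in N-LKO 3, at 1.64 with the next at 2.07, Dpm2 in N-LKO 2, at 2.82 with the next at 2.49, Stt3a in N-LKO 4, at 6.17 with the next at 5.94, Stt3b in N-LKO 2, at 7.02 with the next at 6.86, and Mpi in N-LKO 1, at 2.96 with the next at 2.38. Among WT livers they were Dpm3 in WT 1, at 1.18 with the next at 1.57, Mpdu1 in WT 1, at 4.53 with the next at 4.67, and Gmppa in WT 2, at 2.46 with the next at 2.83. No liver held more than 2 of the 8.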

How the results depend on the processing

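The count of called genes among the 44 was 0 under all 16 alternatives. The count with an unadjusted p under 0.05 was 8 in edgeR with TMM. It was 5 with library totals alone (11.4%, against 12.7% of all genes) and 5 with DESeq2 (11.4% against 11.5%). With 1 mouse left out it was 4 to 11, with 4 without WT 3 (9.09% against 12.1%) and 11 without N-LKO 2 (25% against 13.4%). The count without overlap, 6, was 5 to 10 with 1 mouse left out (11.4% to 22.7% of the 44, against 10% to 12.8% of all genes). It was 5 with RLE scaling (11.4% against 7.47%) and 4 with library totals alone (9.09% against 7.5%). Between mice of the same number, the correlation of residuals was -0.0853 to 0.0625 by title number and -0.0092 to 0.166 by library number. Mice of unlike number were not compared, so whether either number pairs the mice was not tested. With a replicate block by title number 131 genes were called and 7 of the 44 had an unadjusted p under 0.05 (15.9%, against 12.3% of all genes). With a replicate block by library number the counts were 113 and 5 (11.4% against 13.6%). The 3 chaperone calls were then lost, with fold changes close to those without the block.

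Signs changed for genes near zero. With library totals alone, which moved the median of all genes from -0.0033 to -0.0373, the median of the 44 was -0.0122 and that of the cytosolic step -0.0123, Dpm2 was at -0.00946, Mpi at -0.00905 and Gnpnat1 at -0.015. Tusc3 was at 0.0072 and 0.00581 with a replicate block by title and by library number and at 0.0136 with limma-voom. With 1 mouse left out, log2 fold changes ran from -0.13 to 0.0142 for Srd5a3, from -0.0149 to 0.094 for Dolpp1, from -0.13 to 0.0337 for Alg1, from -0.0211 to 0.11 for Alg8, from -0.103 to 0.0495 for Dpm1, from -0.0684 to 0.0851 for Dpm2, from -0.21 to 0.0423 for Dpm3, from -0.059 to 0.0282 for Alg5, from -0.0122 to 0.0873 for Stt3a, from -0.0904 to 0.0156 for Rpn1, from -0.0638 to 0.0561 for Dad1, from -0.132 to 0.181 for Tusc3, from -0.151 to 0.107 for Mpi, from -0.0274 to 0.142 for Gmppb, from -0.0179 to 0.0659 for Gnpnat1, from -0.0545 to 0.0847 for Pgm3 and from -0.0127 to 0.0817 for Man1b1. Step medians then ran from -0.0149 to 0.0605 for dolichol supply, from 0.00877 to 0.0695 for the cytosolic and -0.0634 to 0.0133 for the lumenal step, from -0.103 to 0.0027 for dolichol-phosphate sugars, from 0.0336 to 0.126 for oligosaccharyltransferase, from -0.133 to 0.107 for GDP-mannose and 0.0507 to 0.12 for UDP-GlcNAc supply, and from -0.0625 to -0.00498 for trimming. That of the 44 ran from -0.00143 to 0.0387. The cause of these shifts was not tested. The largest SEs, 0.203 to 0.321, were those of Pmm1, Dpm3 and Tusc3, each below 5 CPM, and the part of depth in them was not tested.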
